A study of Mus musculus with 6 samples.

Results

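The genes described here are 10 immediate early genes, Fos, Fosb, Jun, Junb, Egr1, Egr2, Ier2, Ier3, Atf3 and Myc, taken from the 19057 genes that the array's annotation names. They were chosen by name, and every probe annotated to them was used, which gave 12 probes. The cells were mouse embryonic stem cells electroporated with an shRNA vector against the chromatin remodeller Chd9, called shChd9, or given a control transfection whose content the labels do not state, with 3 samples in each group. Both groups received the same handling, which included growth on mitomycin C-inactivated embryonic fibroblasts in medium with 15% serum and leukemia inhibitory factor, then puromycin from 24 h after electroporation for another 48 h. RNA of each sample was hybridised to 1 Illumina bead array, and all 6 arrays lay on 1 slide, the shChd9 arrays side by side and the control arrays side by side, so a difference between groups cannot be told apart from one of position. Nothing in the labels shows that the samples came from separate cultures, and p-values therefore reflect the spread of these 6 samples, which may be technical only.

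Immediate early genes are transcribed within minutes of a growth factor, serum or stress signal, without new protein synthesis, because the factors that switch them on already sit in the cell. ERK, p38 and JNK kinases act on ternary complex factors bound beside serum response factor and on CREB and ATF proteins. The products are mostly unstable transcription factors, among them the FOS and JUN proteins that pair as AP-1, and they pass the signal on to slower target genes. In stem cells kept in serum, growth factors in the medium and stress during handling can both feed this pathway.

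The arrays carried a comparable amount of signal, with mean raw intensities between 356 and 464 and between 39.2% and 40.8% of the probes detected on each (detection p under 0.05). Chd9 itself was first checked. Probe ILMN_1235114 measured 6.75, 6.37 and 6.41 on the shChd9 arrays, against 7.67, 7.54 and 7.65 on the control arrays (log2 intensity), and ILMN_2697954 measured 6.56, 6.32 and 6.64 on the shChd9 arrays, against 7.36, 7.74 and 7.80 on the control arrays. Both were lower on every shChd9 array, by log2 fold changes of -1.11 ± 0.16 and -1.13 ± 0.18 (SE), and neither passed over all probes (limma, adjusted p = 0.540). Another, dimmer Chd9 probe, ILMN_1226311, gave 0.35 ± 0.21 with overlapping groups (limma, adjusted p = 0.925), and ILMN_2600528, detected on 1 control array, was not tested. All 14 embryonic stem cell markers examined were detected on all 6 arrays, 7 with a positive log2 fold change. The smallest p were those of Tdgf1, a NODAL co-receptor, at -0.54 ± 0.25, the kinase cofactor Tcl1 at -0.30 ± 0.17 and the pluripotency factor Nanog at -0.29 ± 0.17, none past the test. Markers of the fibroblasts on which the cells grew were measured too, with 21 of 28 tested. Their mean level was 9.09, 7.85 and 8.48 on shChd9 arrays 1 to 3, against 8.62, 7.52 and 8.14 on control arrays 1 to 3 (log2 intensity). The arrays thus differed in fibroblast transcripts more within each group than the group means did, and the log2 fold change was positive for all 21 markers, against 49.1% of all genes tested, averaging 0.38. In both groups array 1 was highest and array 2 lowest, and the mean fold change of the markers varied with the array left out. It was 0.09 with 13 of 21 positive when control replicate 2 was left out, 0.05 with 12 of 20 when shChd9 replicate 1 was, 0.63 when control replicate 1 was and 0.68 when shChd9 replicate 2 was. The smallest p were those of Timp3, a matrix protease inhibitor, at 0.52 ± 0.21, the actin-binding Tagln at 0.39 ± 0.16 and the calcium-binding S100a4 at 0.59 ± 0.25 (limma, adjusted p between 0.895 and 0.911). S100a4 was detected on 2 of 3 shChd9 arrays and 1 of 3 control arrays. In such mixed samples, fewer cells of a type and less RNA per cell cannot be told apart.

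Promoters of 7 of the 10 genes were taken from a RefSeq table (GRCm38.p6). Those of Egr1, Ier2 and Myc were not examined, so nothing can be said of their sites. The 250 bases before the annotated start are printed for Jun and Atf3, which had the largest fold changes of the set, for Ier3, whose level followed the fibroblast markers, and for Fos, whose fold change had the opposite sign. Capitals mark every match, on either strand, to an AP-1 site (TGANTCA), a CRE-like site (TGACNTCA), a CRE half-site (TGACG), a CArG box (the site of serum response factor), a TATA box (TATAAA) or an EGR site (GCGNGGGCG). The CRE-like site would overlap a half-site where its free base is G.
Jun, chr4:95052223-95052472, minus strand: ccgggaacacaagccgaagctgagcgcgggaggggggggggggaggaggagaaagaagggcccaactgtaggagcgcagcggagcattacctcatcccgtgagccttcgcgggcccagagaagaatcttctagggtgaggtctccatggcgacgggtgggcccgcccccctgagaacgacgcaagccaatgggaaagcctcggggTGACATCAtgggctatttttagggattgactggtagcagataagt
Atf3, chr1:191183334-191183583, minus strand: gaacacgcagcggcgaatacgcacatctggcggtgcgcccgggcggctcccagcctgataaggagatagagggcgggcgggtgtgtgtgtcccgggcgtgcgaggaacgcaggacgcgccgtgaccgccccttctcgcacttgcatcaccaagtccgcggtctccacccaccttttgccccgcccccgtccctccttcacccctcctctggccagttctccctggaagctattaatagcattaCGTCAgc
Ier3, chr17:35821463-35821712, plus strand: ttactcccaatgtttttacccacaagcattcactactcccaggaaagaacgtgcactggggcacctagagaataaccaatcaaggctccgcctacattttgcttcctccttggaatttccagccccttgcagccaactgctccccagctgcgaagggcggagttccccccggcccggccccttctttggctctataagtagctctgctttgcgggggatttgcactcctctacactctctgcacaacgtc
Fos, chr12:85473640-85473889, plus strand: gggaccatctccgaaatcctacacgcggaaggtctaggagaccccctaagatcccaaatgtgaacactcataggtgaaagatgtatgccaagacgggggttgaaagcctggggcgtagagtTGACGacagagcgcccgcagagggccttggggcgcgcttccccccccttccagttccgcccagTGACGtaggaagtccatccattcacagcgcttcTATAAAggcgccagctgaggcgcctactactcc

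The Jun window held 1 CRE-like site, beginning 45 bases before the start, and the Atf3 window held 1 CRE half-site on the opposite strand, 7 bases before it. The Fos window held CRE half-sites 129 and 66 bases before the start and a TATA box 33 bases before it. No match was found in the Ier3 window, which says only that these letters are absent there. Among the other promoters used, Junb held 1 CRE half-site, Fosb a CRE half-site and an EGR site, and the 4 Egr2 starts with a match each held a CArG box. The 3 of these Egr2 windows that overlap also held 2 CRE half-sites each, 1 on either strand. In 32536 windows of the same length, 17.9% held a CRE half-site, 7.43% a CRE-like site, 12.3% a TATA box, 6.73% an AP-1 site, 4.74% an EGR site and 1.48% a CArG box. These matches describe the printed letters and were not tested against the expression values.

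Whether the Chd9 vector went with a change in these genes was asked by comparing the 2 groups. Of the 10 genes, 9 were detected well enough to be tested, and Ier2 was not. Over all genes tested, none of these 9 passed (limma, adjusted p between 0.917 and 0.997), and 0 had an unadjusted p under 0.05. Over all 10194 genes tested 0% passed and 5.42% had an unadjusted p under 0.05, so the count of 0 members is close to what the array as a whole gave. Of the 9, 7 had positive log2 fold changes and the median was 0.25, where 49.1% of all genes tested had positive ones and their median was -0.0045. The groups overlapped for each of the 9 genes, whereas 10.5% of all genes tested had groups that did not overlap, 4.4% with every shChd9 array above every control array and 6.08% with every shChd9 array below. A test of 3 arrays against 3 by exact permutation cannot go below p = 0.10, and it gave p between 0.20 and 0.90 (two-sided) for these genes.

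**Figure D1:**
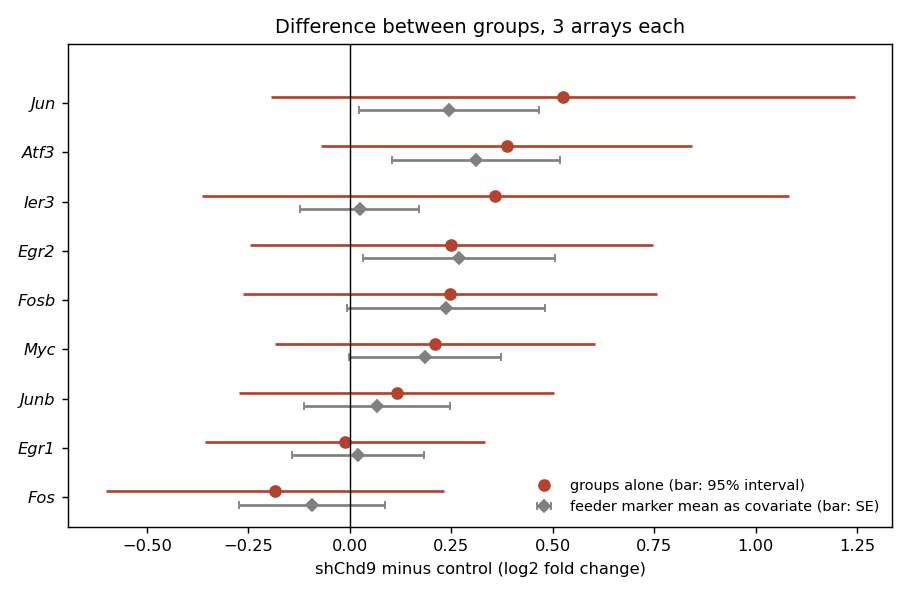
Log2 fold change of shChd9 over control for the 9 tested genes, from Jun at 0.52 down to Fos at -0.18. Red points and bars give the estimate from the groups alone with its 95% interval, and grey diamonds the estimate with the fibroblast marker mean as a covariate, with its SE. Every interval crosses 0, and Ier3 and Jun move most towards 0 with the covariate.

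Levels below are log2 normalized intensities of 1 probe, given for replicates 1 to 3 of each group, and levels of different probes are not comparable. Jun, the AP-1 subunit that can pair with itself or with a FOS protein, had the largest fold change of the set. It measured 7.38, 6.77 and 7.05 on the shChd9 arrays, against 6.90, 5.77 and 6.95 on the control arrays. The second control array lay far below the other 5 and the groups otherwise overlapped. The difference was 0.52 ± 0.32 (log2 fold change ± SE), or 1.44-fold with a 95% interval of 0.873 to 2.37, which did not pass (limma, adjusted p = 0.917). It was 0.14 without control replicate 2 and 0.27 with no background correction.

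Atf3, a stress-induced factor of the ATF family that pairs with JUN proteins and often represses, had the smallest p of the set. It measured 5.76, 5.75 and 5.71 on the shChd9 arrays, against 5.40, 4.95 and 5.72 on the control arrays. The shChd9 arrays were nearly equal, with an SD of 0.025, whereas the control arrays spread over 0.77, and the highest control array lay just above the lowest shChd9 array. The difference was 0.39 ± 0.20 (limma, adjusted p = 0.917), and 0.19 without control replicate 2. It was 0.57 ± 0.19 when control replicate 3, the highest control array, was left out, which had an unadjusted p under 0.05 and did not pass (limma, adjusted p = 0.928). With no background correction it was 0.13.

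Fos, the founding partner of JUN in AP-1, was the member with the lowest fold change. It measured 6.66, 6.91 and 6.85 on the shChd9 arrays, against 6.68, 7.04 and 7.26 on the control arrays. The first array of each group was the lowest and the 2 were nearly equal, while the other control arrays lay above the other shChd9 arrays. The difference was -0.18 ± 0.18 (limma, adjusted p = 0.929), and with 1 array left out it was -0.05 (control replicate 3), -0.11 (shChd9 replicate 1) or -0.34 (control replicate 1). It was -0.11 with no background correction.

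Fosb, which also pairs with JUN proteins, was detected on 2 of 3 shChd9 arrays and 1 of 3 control arrays. It measured 5.18, 5.19 and 4.63 on the shChd9 arrays, against 4.58, 4.54 and 5.13 on the control arrays. Each group held both high and low arrays, and the difference of 0.25 ± 0.22 was close to the pooled SD of 0.33 within groups (limma, adjusted p = 0.929). It was 0.08 with no background correction, 0.14 with array weights, and with 1 array left out 0.14 (control replicate 2), 0.16 (control replicate 1) or 0.44 (shChd9 replicate 3).

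Junb, a JUN protein with weaker activity on many AP-1 targets, measured 9.34, 8.92 and 8.98 on the shChd9 arrays, against 8.98, 9.11 and 8.81 on the control arrays. Only the first shChd9 array stood above the control range, and the difference of 0.12 ± 0.17 did not pass (limma, adjusted p = 0.955). Without shChd9 replicate 1 it was -0.01, so that its sign rests on that array. It was 0.03 without control replicate 3, and 0.19 without either control replicate 2 or shChd9 replicate 2. The 5 AP-1 genes therefore gave positive fold changes for Jun, Atf3, Fosb and Junb and a negative one for Fos, none past the test.

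**Figure D2:**
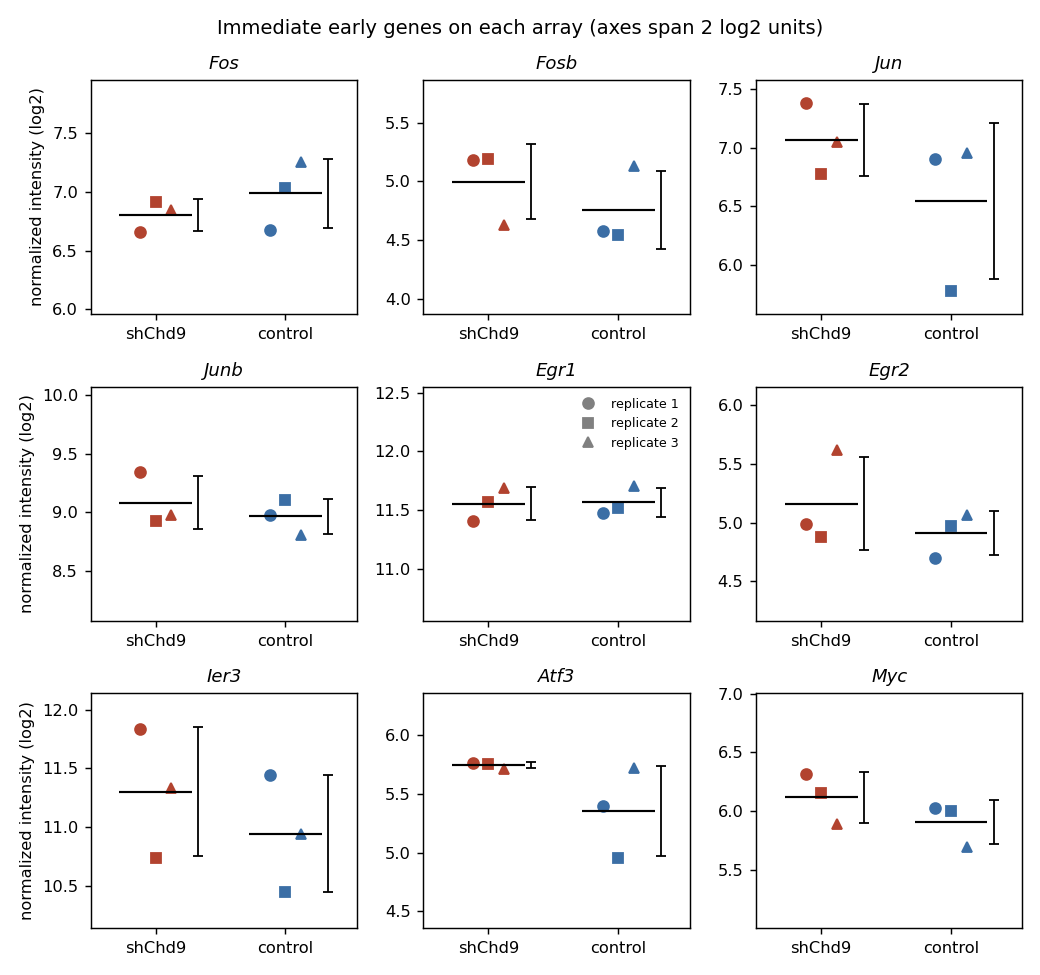
Log2 normalized intensity of each tested gene on each array, shChd9 arrays in red at the left and control arrays in blue at the right of each panel. Marker shapes give the replicate, horizontal lines the group mean and bars the SD of 3 arrays. All axes span 2 log2 units, so the wide spread of Jun and Ier3 can be set against the narrow spread of Egr1, and the groups overlap in every panel.

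Egr1, a zinc finger factor induced by ERK signalling through serum response factor, varied least. It measured 11.41, 11.57 and 11.69 on the shChd9 arrays, against 11.47, 11.52 and 11.70 on the control arrays. The 2 groups covered nearly the same range, and the difference was -0.01 ± 0.15 with a 95% interval of -0.36 to 0.33 (limma, adjusted p = 0.997). Under median scaling, which moved the median of all genes to 0.04, it was 0.0039. With 1 array left out it was 0.055 (control replicate 3) or 0.060 (shChd9 replicate 1), so its sign is not fixed. Egr2, a relative of Egr1 known for its part in hindbrain and Schwann cell development, was detected on 3 shChd9 and 2 control arrays. It measured 4.99, 4.88 and 5.62 on the shChd9 arrays, against 4.70, 4.97 and 5.07 on the control arrays. The third shChd9 array alone stood above the control range, and without it the difference of 0.25 ± 0.22 (limma, adjusted p = 0.928) was 0.02. It was 0.14 when control replicate 1 was left out, 0.39 when shChd9 replicate 2 was, and 0.08 with no background correction.

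Myc, a factor that drives growth and is directly activated by LIF signalling in mouse stem cells, measured 6.31, 6.15 and 5.88 on the shChd9 arrays, against 6.02, 6.00 and 5.69 on the control arrays. The 2 highest arrays were both shChd9 and the lowest was a control, with overlap between them. The difference was 0.21 ± 0.17 (limma, adjusted p = 0.928), and omitting 1 array gave 0.10 (control replicate 3), 0.11 (shChd9 replicate 1) or 0.33 (shChd9 replicate 3). The estimate was 0.09 with no background correction.

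Ier3 encodes a short-lived protein that modulates cell survival and ERK signalling and is not itself a DNA-binding factor. It measured 11.83, 10.74 and 11.33 on the shChd9 arrays, against 11.44, 10.45 and 10.94 on the control arrays. Each group spread over about 1 log2 unit (1.09 in shChd9 and 0.99 in control), and the 2 ranges overlapped over most of their length. The difference was 0.36 ± 0.32 (limma, adjusted p = 0.929), and with 1 array left out it was 0.09 (shChd9 replicate 1), 0.11 (control replicate 2), 0.60 (control replicate 1) or 0.64 (shChd9 replicate 2). Ier2, whose product acts in transcriptional responses to growth factors, was detected on 1 of 3 shChd9 arrays and on 0 of 3 control arrays. It measured 4.27, 5.00 and 4.41 on the shChd9 arrays, against 4.67, 4.22 and 4.28 on the control arrays. Apart from the second shChd9 array these are not well above background, and no fold is given because the shChd9 mean of 4.56 lies below the control bound of 4.82 (log2).

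Where a gene had a second probe, that probe was not informative. The other Myc probe, ILMN_1231123, was detected on no array, with raw intensities between 84.7 and 106.9, while the tested probe ILMN_2623526 read between 131.6 and 176.7. The other Junb probe, ILMN_1254833, was detected on 1 control array and no shChd9 array, with raw intensities between 95.1 and 125.1, whereas ILMN_1220034 read between 500.0 and 797.9. Agreement between probes could therefore not be judged for any of the 10 genes, and the other 8 had 1 probe each.

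The genes differed widely in how much the arrays of one group varied. The pooled SD within groups was 0.52 for Ier3 and for Jun, at the 96.1 and 95.9 percentiles of all genes tested, against 0.13 for Egr1, at the 17.0 percentile. Fosb, Egr2 and Atf3 lay between the 65.2 and 77.5 percentiles, and Fos, Myc and Junb between the 39.9 and 51.8 percentiles. The mean difference between groups was larger than this SD for Jun, Atf3 and Myc, and smaller for the other 6.

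The spread of Ier3 ran with the fibroblast markers. From the highest array to the lowest, both were ordered shChd9 1, control 1, shChd9 3, control 3, shChd9 2 and control 2. This order, looked up after the values were seen, was found in 81 of 10173 genes tested outside the marker list, or 0.796%. With the marker mean as a covariate, the residual SD of Ier3 was 0.035, against 0.52 for the groups alone, and the difference between groups was 0.02 ± 0.15 (limma, adjusted p = 0.994). Only 5 genes had a smaller ratio of the 2 SDs, namely Errfi1, Ifitm3, Saa3, Fubp3 and Zfp275, which were looked up after their values were seen. Errfi1, an inhibitor of the EGF receptor, is itself induced as an immediate early gene.

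Other genes of the set followed the markers less or not at all. The residual SD of Jun was 0.32 with the covariate, against 0.52 for the groups alone, and its difference was 0.24 ± 0.22 (limma, adjusted p = 0.961). Fos had a negative slope of -0.24 per log2 unit of the marker mean, and its difference with the covariate was -0.09 ± 0.18. The residual SD was not smaller with the covariate for Fosb, Junb, Egr1, Egr2, Atf3 or Myc, where the ratio to the SD without it lay between 1.04 and 1.15. The Atf3 difference was 0.31 ± 0.21 and the Egr1 difference 0.02 ± 0.16 with the covariate. The summed level of the 21 markers on a linear scale ranged from 13113 to 24243 on the shChd9 arrays and from 10567 to 18199 on the control arrays. Of the other fibroblast markers on the array, Col1a2, Col3a1, Col5a2, Postn, Cdh11 and Fap were detected on at most 2 arrays each, and Postn on 0.

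**Figure D3:**
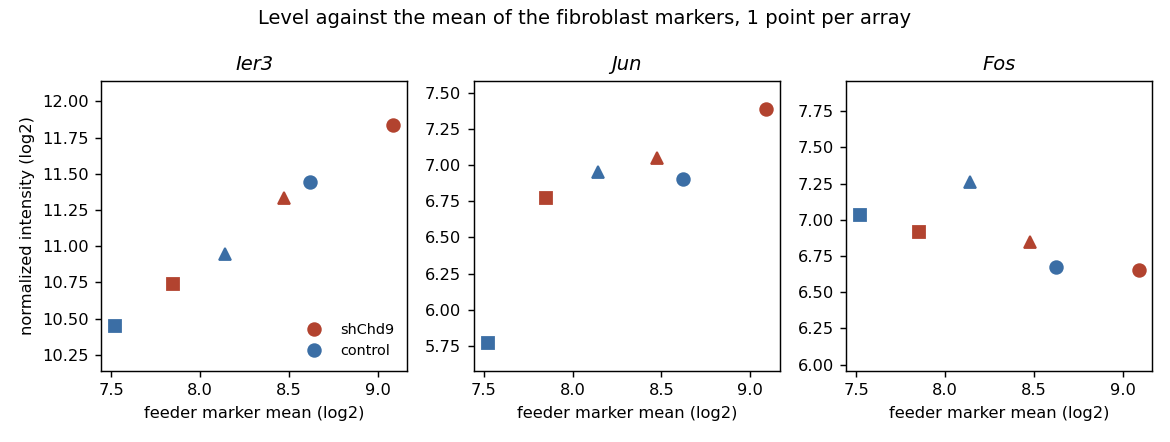
Level of Ier3, Jun and Fos (log2 normalized intensity, y axis) against the mean of the 21 fibroblast markers (log2, x axis), with 1 point per array, shChd9 in red and control in blue, and shapes for replicates. The 6 Ier3 points rise in a single line with the groups interleaved, Jun rises mainly through control replicate 2 at 5.77, and Fos is lowest on the arrays with the most marker signal.

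Further immediate early genes gave a similar picture. Of 35 listed, 29 were tested, 21 of them positive in log2 fold change with a median of 0.13, where 49.1% and -0.0045 are the values over all genes. None passed over all genes tested, and 1 had an unadjusted p under 0.05 (limma), where the share over all genes tested was 5.42%. Ccn1, a matricellular protein induced by serum and YAP, measured 7.95, 7.41 and 7.75 on the shChd9 arrays, against 7.59, 6.88 and 7.10 on the control arrays, a difference of 0.51 ± 0.22 (limma, adjusted p = 0.914). Zfp36, which promotes decay of short-lived mRNAs, gave 0.48 ± 0.24. Jund, the JUN protein that is least tied to stimulation, gave 0.41 ± 0.21. The mean of the list was 0.13, and it was 0.08 without control replicate 2 and likewise with the fibroblast marker mean as a covariate.

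Among the dimer partners of AP-1, 5 of 8 tested had a positive log2 fold change and 0 passed, the median of 0.08 lying between 0.0059 and 0.32 with an array left out, with Atf7 at 0.30 ± 0.14 and Fosl2, another FOS-family protein, at 0.46 ± 0.33 beside Jund. Fosl2 measured 9.29, 8.23 and 8.66 on the shChd9 arrays, against 8.84, 7.75 and 8.22 on the control arrays, so it too was high on the first array of each group and low on the second. Of the AP-1 targets, all 10 tested had positive values, where 49.1% of all genes tested did. Their median log2 fold change was 0.32, and 0 of these targets passed (limma, adjusted p between 0.917 and 0.996). They include the matrix protease Mmp9 at 0.55 ± 0.27, the protease inhibitor Timp1 at 0.42 ± 0.23 and the urokinase receptor Plaur at 0.31 ± 0.25. Their mean of 0.35 was -0.01 with the fibroblast marker mean as a covariate, 0.07 without control replicate 2 or shChd9 replicate 1, and, in the other direction, 0.61 with control replicate 1 left out or 0.66 with shChd9 replicate 2 left out. Positive values were held by 6 of 10 with that covariate or without control replicate 2, and by 7 of 10 without shChd9 replicate 1. It was 10 of 10 without control replicate 1, and 9 of 10 without control replicate 3, shChd9 replicate 2 or shChd9 replicate 3.

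The ERK feedback genes all had positive log2 fold changes, 6 of 6 tested, with a median of 0.22, and 0 passed. Dusp6, a phosphatase of ERK, measured 11.39, 11.45 and 11.67 on the shChd9 arrays, against 11.35, 10.95 and 11.01 on the control arrays, so that the groups did not overlap. The difference was 0.40 ± 0.17 (limma, adjusted p = 0.897). Groups did not overlap for 10.5% of all genes tested, 4.4% with every shChd9 array above every control array. Spry4, an inhibitor upstream of ERK, gave 0.47 ± 0.20 and Dusp4, a nuclear phosphatase, 0.23 ± 0.18, and 2 of the 6 had an unadjusted p under 0.05, where the shares over all genes tested were 49.1% positive and 5.42% under 0.05. With 1 array left out, 5 or 6 of the 6 were positive and the median lay between 0.16 and 0.32. In contrast with the AP-1 targets the mean of 0.28 was 0.29 with the fibroblast marker mean as a covariate, and that contrast was not tested. The kinases and factors that induce the pathway had 6 positive and 6 negative values among 12 tested, with a median of -0.02 that lay between -0.086 and 0.018 with an array left out. Elk3, a ternary complex factor, gave 0.37 ± 0.18, the kinase Mapk8 -0.25 ± 0.15 and Creb1 -0.29 ± 0.19, and 0 passed. Creb1 was detected on 1 of 3 shChd9 arrays and 3 of 3 control arrays, and Elk3 on 3 of 3 and 2 of 3.

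The remaining lists gave 0 calls as well. Over all genes tested, 49.1% had a positive log2 fold change. Of the EGR targets and corepressors 3 of 5 tested had a positive value, with a median of 0.01. Single arrays set these values: with shChd9 replicate 1 left out 0 of 5 were positive with a median of -0.16, and with shChd9 replicate 3 left out the median was 0.30. Nab1, which represses through EGR proteins, gave -0.53 ± 0.28, the growth factor Tgfb1 0.29 ± 0.29 and Egr3 0.23 ± 0.27. Egr3 was detected on 2 of 3 arrays in each group. In the MYC network 5 of 9 had a positive value, with a median of 0.20, which lay between 0.097 and 0.15 with an array left out and was 0.12 with no background correction. Mnt, a repressor that competes with MYC for its partner Max, measured 5.84, 5.63 and 5.79 on the shChd9 arrays, against 5.54, 4.29 and 4.68 on the control arrays. Its shChd9 arrays all lay above the control arrays, as they did for 4.4% of all genes tested. The difference was 0.92 ± 0.29 (limma, adjusted p = 0.870), but Mnt was detected on 1 of 3 control arrays. Max gave 0.28 ± 0.16 and Mxd4, another Max partner, 0.30 ± 0.20. Targets of MYC had a positive value for 2 of 10 tested, with a median of -0.15 that lay between -0.23 and -0.078 with an array left out, and included the nucleolar protein Nolc1 at -0.42 ± 0.24, the glycolytic enzyme Ldha at -0.28 ± 0.18 and the spermidine synthase Srm at -0.23 ± 0.17. Nolc1 was detected on 2 of 3 shChd9 arrays and 3 of 3 control arrays. In the ATF4 stress arm, which can induce Atf3, 4 of 7 had a positive value, with a median of 0.03 that lay between -0.070 and 0.087 with an array left out. Ddit3, a partner of ATF proteins, gave 0.49 ± 0.42, Asns, an amino acid synthesis enzyme, -0.26 ± 0.15 and Chac1, which degrades glutathione, -0.24 ± 0.27.

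**Figure D4:**
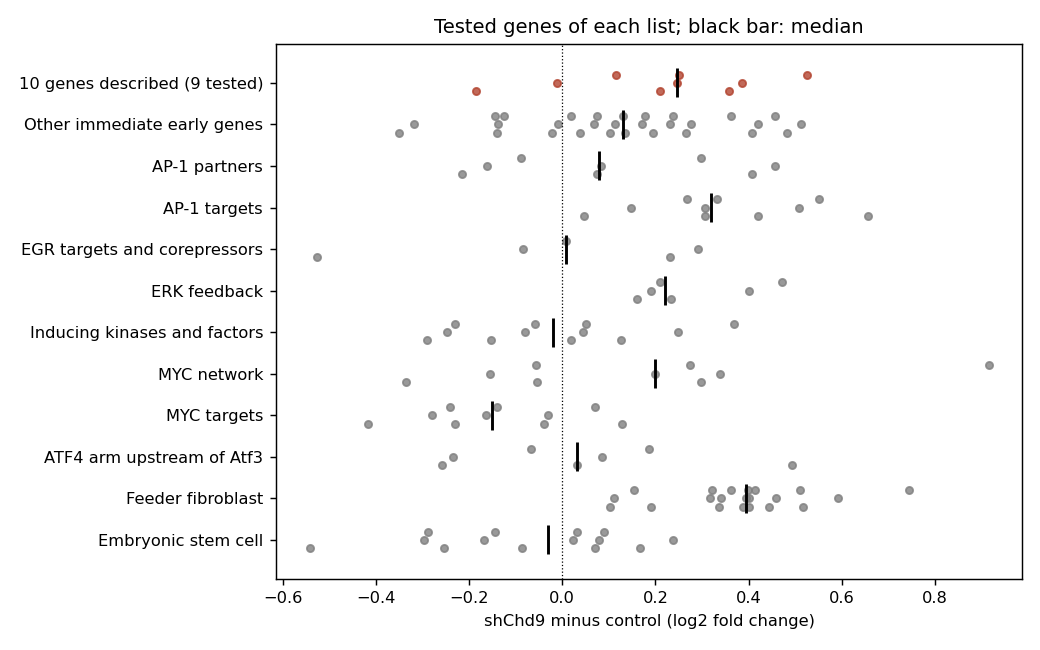
Log2 fold change of shChd9 over control (x axis) for every tested gene of each list (rows), with the 9 tested immediate early genes in red and a black bar at each list's median. The AP-1 targets and ERK feedback genes lie wholly above 0, as do the fibroblast markers, and no gene shown passed the test over all genes.

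The genes whose profile over the 6 arrays was most like the mean of the 9 tested genes were Rps7, Tsr2, Scin, Syap1 and Stx5a. Their root mean square difference from that mean profile, after centring, was between 0.047 and 0.051 log2 units, against a median of 0.26 over all genes. A gene that did not vary at all would differ from it by 0.16, and these genes were picked as the nearest of all tested. The mean profile itself was 0.22, 0.00 and 0.10 on the shChd9 arrays, against -0.08, -0.28 and 0.04 on the control arrays (log2, centred). Control replicate 2 was thus the lowest array and shChd9 replicate 1 the highest, and control replicate 3 lay above shChd9 replicate 2.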

How the data were processed

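Total RNA of 6 mouse embryonic stem cell samples was measured on Illumina bead arrays of 45281 probes. Per the file headers, the deposited non-normalized table gives an average intensity on a linear scale and a detection p-value against the array's negative controls for each probe. The submitters' processing notes name GenomeStudio, and its version and settings are not given in the sources used here. The authors' deposited series table holds a second intensity, found to be the first after quantile normalization, on a linear scale and not centred, with column medians of 111.4, 111.39 and 111.4 for control and 111.38, 111.39 and 111.37 for shChd9.

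Groups came from the transfection label, and replicates were numbered in order of deposit. The software was R 4.3.3 with limma 3.58.1. Background was removed by neqc, which here estimates the negative controls out of the detection p-values, and an offset of 16, quantile normalization and log2 followed. Probes with a detection p under 0.05 on at least 3 arrays were tested, 17719 in all. For each of 10194 genes the brightest tested probe on average was used. A linear model (lmFit, eBayes) compared the groups in a two-sided test, p-values were adjusted over all genes by Benjamini-Hochberg with a threshold of 0.05, and the fit was tested on simulated data, where the mean estimated fold changes were close to those simulated. A first requirement on the share of changed genes it recovered was not met with one of the simulated spreads, and that requirement was dropped. The check that was kept covers the mean estimates only and does not show how often a change would be found. Of the probes, 34885 had 1 symbol, 18 several and 10378 none, with symbols from GEO's platform annotation updated through Entrez identifiers in a RefSeq table. Signal over background and 3 arrays per group limit the precision.

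The genes, lists and tests were chosen with earlier results of these data known, and the promoter motifs after the sequences were seen. The residual spread beside the fibroblast markers and the order of arrays were added after the values were seen. The text names all probes of the 10 genes and, of each list, the genes past the threshold or else the 3 with the smallest p. It adds the 5 genes nearest to the mean profile of the set. Alternatives changed the background correction, scaling, filter, probe choice, spread estimate, array weights and the source table, added the fibroblast marker mean, or left out each array.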

Additional observations from a re-analysis of the deposited data

How the results depend on the processing

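In 16 alternatives 0 genes, 0 probes and 0 of the 10 immediate early genes passed the threshold. The mean log2 fold change of the tested members, 0.21, lay between 0.11 and 0.24 in the alternatives that kept all arrays and between 0.12 and 0.28 with an array left out. The number of members tested changed with the setting. Positive values were held by 5 of 7 under the stricter filter, 6 of 8 without shChd9 replicate 1 or 2, and 7 of 8 without control replicate 3. Median scaling, where 57.1% of all genes were positive, and the covariate gave 8 of 9. With no filter on dim probes it was 8 of 10, and elsewhere 7 of 9. Of 139 values of single members, 134 kept their sign and 5 did not. Egr1 was 0.0039 under median scaling, 0.021 with the fibroblast marker mean as a covariate and between -0.077 and 0.060 with an array left out. Junb was between -0.014 and 0.19 with an array left out. The cause of these changes of sign was not tested. The stricter filter left Egr2 and Fosb untested, and Fosb was also untested in 3 of the fits with an array left out. No paired analysis was run, because the labels give the samples no shared replicate numbers and do not say whether samples were prepared in parallel. In both groups, numbered by order of deposit, the fibroblast marker mean fell in the order 1, 3, 2, and whether this reflects pairs was not tested. Signal over background limits what can be said of Ier2, Fosb, Egr2 and Atf3.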
